A study of Mus musculus with 6 samples.

Results

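The collagen and laminin genes are the structural genes of the extracellular matrix and of the basement membranes that neural stem cells rest on. They were taken by name as every gene on the array called Col, a number, a and a number, or Lam with a letter a, b or c and a digit. The name rule gave 50 genes, 40 collagen and 10 laminin genes, of 28786 named genes on the array, and each was read by the probe of highest mean signal among its probes. The 50 genes held 98 probes. A gene was tested where its probe stood well above background in at least 1 dye channel on at least 2 of the 6 arrays. This held for 36 members, 29 collagen and 7 laminin genes. Among the 14 members that did not pass were Col3a1, Col4a3, Col6a1, Col8a2, Col10a1, Col12a1, Col14a1, Col17a1, Col19a1, Col24a1, Col28a1, Lama1 and Lamb3. 3 further probes, named Lamb1-1, Emid2 and E330026B02Rik on the array, now carry the names Lamb1, Col26a1 and Col6a6, and fell outside the name rule.

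RNA came from cultured neural stem cells of the subventricular zone of mice at postnatal day 14 to 21. Each 2-colour array set RNA of Dnmt3a-null (KO) cells in one dye against RNA of wild-type (WT) cells in the other. Dnmt3a encodes a DNA methyltransferase that sets new methyl groups on cytosines. All cells grew on poly-ornithine and fibronectin in B27 medium without serum. Proliferating cells (4 arrays, 4 KO and 4 WT samples) were kept in FGF-2 and EGF at 10 ng/ml each. Differentiating cells (2 arrays, 2 KO and 2 WT samples) were replated with these mitogens for 2 days and then held without them for 3 days. The labels call the samples biological replicates but do not say whether they came from separate mice, so p-values measure the spread between these samples. Mouse strain, and the part of Dnmt3a that the null allele lacks, are not given in the sources used here.

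Collagens are built from chains that wind into triple helices, and families differ in what the helices form. Fibril-forming collagens make ropes, fibril-associated collagens such as type IX decorate them, and type IV collagen and laminin each make a sheet-like network in the basement membrane. Laminins are trimers of an alpha, a beta and a gamma chain. In the subventricular zone laminin-rich matrix contacts stem cells next to blood vessels, and cells bind laminin and collagen through integrins, dystroglycan and discoidin domain receptors.

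The Dnmt3a probe gave a log2 KO over WT ratio of -1.38 ± 0.14 on the differentiating arrays (SD, n = 2) and -0.96 ± 0.22 on the proliferating arrays (SD, n = 4). It was lower in KO on all 6 arrays. Each array had between 52.3% and 59.1% of its gene spots well above background in a channel. All 10 neural stem cell markers were above background on every array in each group. Of 11 endothelial markers, Cdh5, Tie1 and Cldn5 were not above background in any group, while Kdr, Flt1 and Esam were above it on at least 1 array of each group. Of 10 mural markers Rgs5, Abcc9, Kcnj8, Des and Higd1b were not above background in any group, while Pdgfrb, Acta2, Myh11, Tagln and Notch3 were above it on at least 2 arrays of each. The 4 proliferating arrays were 1 slide and 1 scan and the 2 differentiating arrays another, so slide, scan and condition cannot be told apart. On proliferating replicates 3 and 4 the X-linked RNA Xist was at 11.06 to 13.33 in both channels, against 5.92 to 6.08 on other arrays. The Y-chromosome gene Ddx3y was at 6.05 and 5.89 in their WT channels, against 8.46 to 9.78 in all other channels. No differentiating array had this pattern, so it cannot be fully told apart from condition or from genotype.

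RNA of 2 of the 3 type IX collagen chain genes was higher in KO than in WT cells. In differentiating cells Col9a3 rose 4.82-fold, and in proliferating cells Col9a3 rose 3.21-fold, Col9a1 rose 2.1-fold and the laminin chain gene Lama4 rose 3.38-fold. The threshold was an adjusted p of 0.05 in limma, with p-values adjusted over all genes tested, and 0 members fell past it in KO cells of either condition. In all, 9 members in differentiating and 13 in proliferating cells had an unadjusted p under 0.05. The share of all genes at that unadjusted p is not given here. These counts, and those below for families and lists, therefore cannot be set against a background. Fewer cells of one type and less RNA per cell cannot be told apart in such bulk samples. The number of members called was 1 of 36 in differentiating cells (2.78%), beside 3.1% of all 18046 genes tested (2.18% higher, 0.914% lower), which is about the background share. In proliferating cells it was 3 of 36 (8.33%), beside 0.97% of all genes tested (0.615% higher, 0.355% lower). The median log2 ratio of the 36 members was 0.13 in differentiating and 0.07 in proliferating cells, against -0.01 over all genes tested in each.

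**Figure D1:**
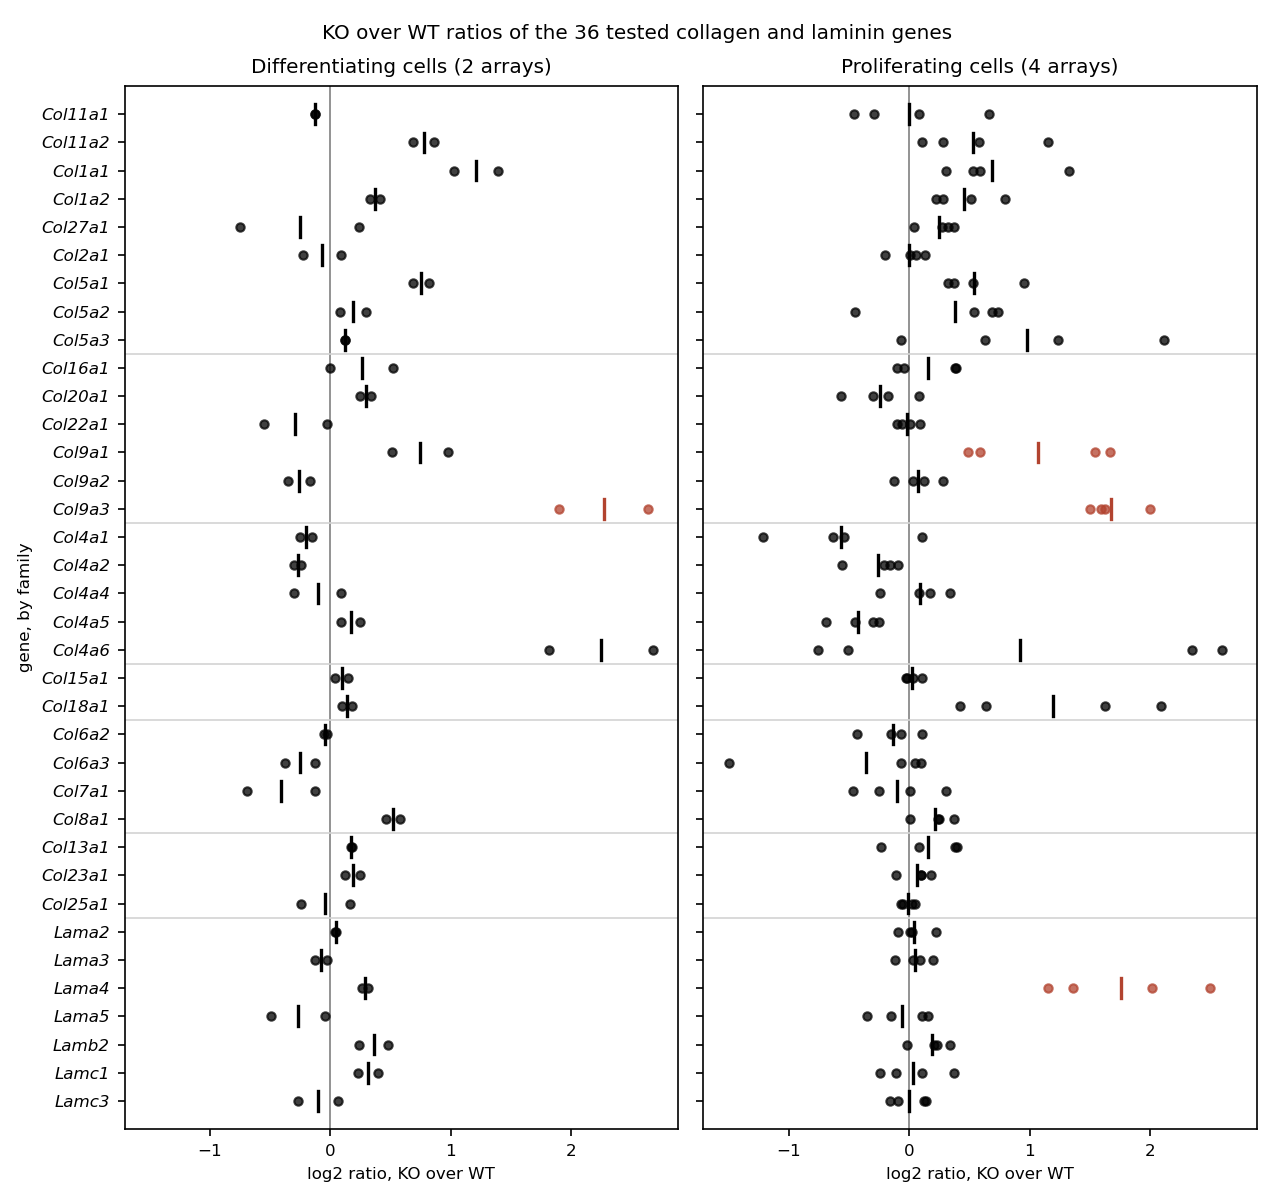
Log2 KO over WT ratio of each tested member on each array, for differentiating cells (left, 2 arrays) and proliferating cells (right, 4 arrays). Points are arrays, vertical bars are means, grey lines part the families, and red marks an adjusted p under 0.05: Col9a3 on the left, and Col9a1, Col9a3 and Lama4 on the right.

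Col9a3 encodes the alpha3 chain of type IX collagen, which sits on the surface of cartilage and vitreous fibrils. Its probe lay at chr2:181116761-181117343 of build mm7, with no exon or UTR stated in the files. Log2 intensities were 11.65 and 10.01 in KO differentiating cells, against 9.01 and 8.11 in WT differentiating cells. In proliferating cells they were 9.96, 9.90, 9.01 and 9.75 in KO, against 8.37, 8.40, 7.38 and 7.75 in WT. KO lay above WT on every array, and the ranges of the KO and WT channels did not overlap in either condition. The ratio was 2.27 (SE 0.17, limma adjusted p = 0.0126) in differentiating cells and 1.68 (SE 0.12, adjusted p = 0.0127) in proliferating cells. The difference between the ratios was 0.59 (SE 0.21, adjusted p = 0.358). The call in differentiating cells ended without differentiating replicate 1 or 2 (adjusted p up to 0.273), and that in proliferating cells without proliferating replicate 3 or 4 or either differentiating replicate (up to 0.0791), with ratios of 1.97 to 2.57 and 1.62 to 1.83.

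Col9a1 encodes the alpha1 chain, and its probe lay at chr1:24461980-24462039 of mm7. Log2 intensities were 9.88 and 8.94 in KO differentiating cells, against 8.90 and 8.43 in WT differentiating cells. In proliferating cells they were 7.31, 8.19, 7.19 and 8.61 in KO, against 6.82, 6.65, 6.60 and 6.93 in WT. The 4 KO proliferating values all lay above the 4 WT ones. WT Col9a1 was well above background on only 2 of the 4 proliferating arrays, so its fold rests on WT values near background. The proliferating ratio was 1.07 (SE 0.10, adjusted p = 0.0194). It ran at 0.49 and 0.59 on the arrays with KO RNA in Cy5 and at 1.54 and 1.67 on those with KO RNA in Cy3, and without a dye term the adjusted p was 0.0865. Agilent's processed signals gave 3.48-fold (adjusted p = 0.00523). Without proliferating replicates 3 and 4 it was 1.02 (adjusted p = 0.0623). Leaving out any array but proliferating replicate 1 also ended it (adjusted p up to 0.0948, ratio 1.00 to 1.14). In differentiating cells the ratio was 0.74 (SE 0.14, adjusted p = 0.0578) and did not pass.

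Col9a2 encodes the alpha2 chain. It had log2 intensities of 8.82 and 9.21 in KO differentiating cells, against 8.99 and 9.57 in WT differentiating cells, and 7.96, 7.67, 7.55 and 8.13 in KO proliferating cells, against 7.68, 7.64, 7.43 and 8.26 in WT proliferating cells. The KO and WT values overlapped in both conditions. Its ratio was -0.26 (SE 0.12, adjusted p = 0.355) in differentiating and 0.07 (SE 0.09, adjusted p = 0.753) in proliferating cells.

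**Figure D2:**
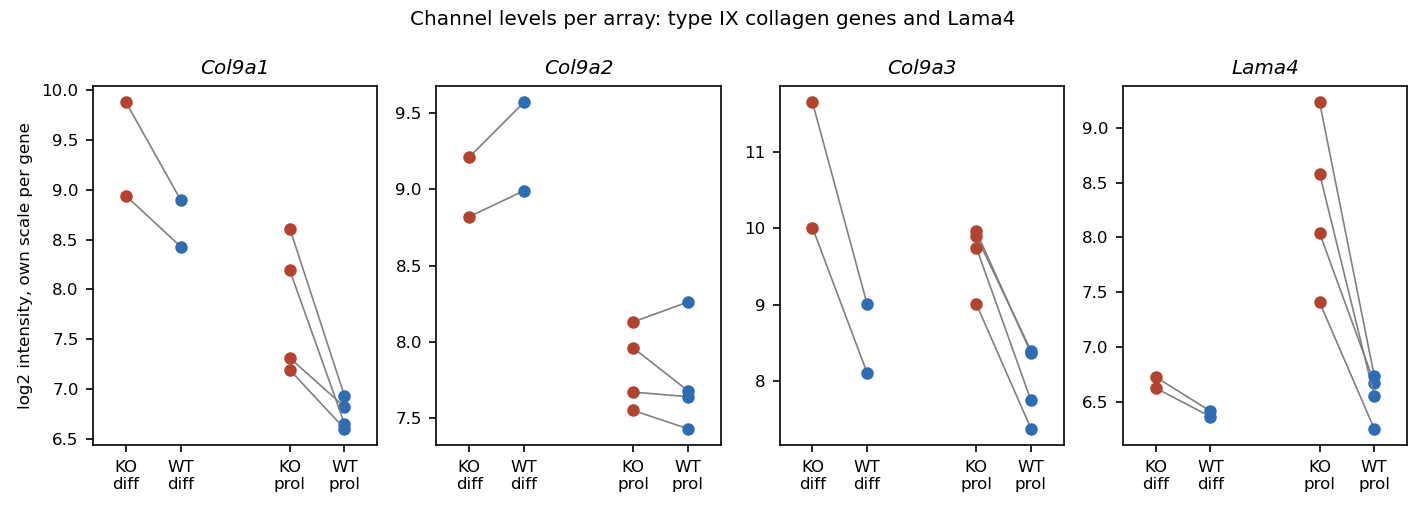
Log2 channel intensity of Col9a1, Col9a2, Col9a3 and Lama4 on each array, KO in red and WT in blue, with lines joining the channels of 1 array (diff, differentiating; prol, proliferating). KO points lie above their WT partners on all 6 arrays for Col9a1, Col9a3 and Lama4, and Lama4 reaches 7.41 to 9.23 only in the KO proliferating samples.

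The start regions of the type IX genes are shown because Col9a1 passed the KO over WT test in proliferating cells and Col9a2 did not, while both rose after mitogen withdrawal. The 250 bases before each start come from RefSeq on GRCm38.p6, a build other than that of the probe positions. CG pairs, the main sites of DNA methylation, are in capitals. Of the 50 members 36 had an entry, with 40 starts, and the table held none for Col9a3.
Col9a1 start 1, chr1:24177360-24177609, plus strand: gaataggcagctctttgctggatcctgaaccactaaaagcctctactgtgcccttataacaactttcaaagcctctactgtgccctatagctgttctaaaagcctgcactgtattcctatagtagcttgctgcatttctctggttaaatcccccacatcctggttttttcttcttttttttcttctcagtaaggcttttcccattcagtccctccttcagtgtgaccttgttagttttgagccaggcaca
Col9a1 start 2, chr1:24194953-24195202, plus strand: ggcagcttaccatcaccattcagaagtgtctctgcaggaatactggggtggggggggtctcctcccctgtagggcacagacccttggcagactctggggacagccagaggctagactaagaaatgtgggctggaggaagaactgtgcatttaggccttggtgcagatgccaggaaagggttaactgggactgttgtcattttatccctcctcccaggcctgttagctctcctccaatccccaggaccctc
Col9a2, chr4:121039316-121039565, plus strand: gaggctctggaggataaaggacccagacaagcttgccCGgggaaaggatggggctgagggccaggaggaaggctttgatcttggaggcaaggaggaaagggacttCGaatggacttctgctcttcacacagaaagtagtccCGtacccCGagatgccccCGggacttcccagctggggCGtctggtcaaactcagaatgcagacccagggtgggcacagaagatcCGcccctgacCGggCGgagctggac
Both Col9a1 windows held 0 CG pairs and the Col9a2 window held 9. A CG pair occurred in 92.1% of the 32851 windows of the same length in the table, with a median of 6.0, and in 35 of the 40 member windows, with a median of 8.5. The count is a description of the letters only, and methylation was not measured here.

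Lama4 encodes the alpha4 chain of laminins, which is typical of vessel walls and peripheral nerve. Its probe lay at chr10:38885787-38885846 of mm7. Log2 intensities were 8.04, 8.58, 9.23 and 7.41 in KO proliferating cells, against 6.68, 6.56, 6.74 and 6.26 in WT proliferating cells. The lowest KO value lay above the highest WT value. WT Lama4 was well above background on only 2 of the 4 proliferating arrays, so its fold rests on WT values near background. The ratio was 1.76 (SE 0.23, adjusted p = 0.0436), and the call was lost when any of the 6 arrays was left out (adjusted p 0.0502 to 0.158, ratio 1.49 to 1.97). It gave 1.99-fold (adjusted p = 0.0775) with the mean of all its probes and 8.4-fold (adjusted p = 0.00694) with Agilent's processed signals. Of the other 3 Lama4 probes, 2 gave mean ratios of 1.21 and 0.94, and the third was not above background. In differentiating cells Lama4 was at 6.73 and 6.63 in KO, against 6.42 and 6.37 in WT, where it was not well above background on either array. The difference of the KO effect between differentiating and proliferating cells was -1.47 (SE 0.39, adjusted p = 0.248), a value that includes those WT channels not above background.

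Marker lists of other cell types were read in the same groups. Of 12 Schwann cell markers, 6 were above background on all KO proliferating arrays and 5 on all WT ones, and their summed signal was 6115 to 43941 in KO and 2799 to 6152 in WT. Pmp2 and Scn7a were not above background in either. The summed signal of 10 oligodendroglial markers was 146967 to 177133 in KO differentiating cells and 61181 to 77365 in WT ones, and 57729 to 136463 in KO proliferating cells and 45206 to 73433 in WT ones. Of these, Mog alone was not above background in WT differentiating and in all proliferating cells. The summed signal of 11 endothelial markers was 1073 to 1654 in KO proliferating cells and 884 to 1005 in WT ones, with Pecam1, Cdh5, Tek, Tie1 and Cldn5 not above background in either. The 8 neuronal markers, all above background in WT differentiating cells and all but Stmn2 in KO ones, summed to 10419 to 11793 in KO differentiating cells and 22211 to 24995 in WT ones. The 8 astrocyte markers, all above background in both, summed to 95625 to 134710 in KO and 74369 to 88793 in WT differentiating cells. The part of these cell types in the collagen and laminin ratios was not tested.

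Among the 10 members of smallest p in differentiating cells, the others than Col9a3 did not pass. Col5a1, a chain of the fibril-nucleating type V collagen, had a ratio of 0.75 (adjusted p = 0.0509), with 0.69 and 0.82 on the 2 arrays. Col1a1, the main chain of type I collagen, had 1.21 (adjusted p = 0.0635) with array values of 1.39 and 1.03. WT Col1a1 was well above background on 1 of the 2 differentiating and 3 of the 4 proliferating arrays, so its ratios rest on WT values near background. Its other probes were not above background on any array. Col5a1 and Col1a1 are fibril-forming collagens, and both lay above 0 on all 6 arrays. Col8a1, a short-chain collagen, had 0.52 (adjusted p = 0.0658), and Col11a2, a cartilage fibril chain, had 0.78 (adjusted p = 0.0882). The second Col11a2 probe, above background on all 6 arrays, gave mean ratios of -0.05 in differentiating and -0.08 in proliferating cells. The dimmer Col5a1 probe gave 0.01 in both. Col7a1, the anchoring fibril collagen, had -0.41 (adjusted p = 0.143), Lamb2, a laminin beta chain, had 0.36 (adjusted p = 0.217), Col22a1 had -0.29 (adjusted p = 0.256) and Col4a6 had 2.25 (adjusted p = 0.309).

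In proliferating cells the next members by p were Col5a1 at 0.54 (adjusted p = 0.078), Col4a5 at -0.42 (adjusted p = 0.132), Col11a2 at 0.53 (adjusted p = 0.136), Col1a1 at 0.69 (adjusted p = 0.139), Col1a2 (adjusted p = 0.149), Col18a1 at 1.19 (adjusted p = 0.15) and Col4a1 at -0.57 (adjusted p = 0.186). Col1a1 had log2 intensities of 7.13, 6.76, 7.05 and 8.14 in KO proliferating cells, against 6.61, 6.45, 6.46 and 6.81 in WT ones. Col1a1 ranges overlapped between 6.76 and 6.81. Col1a2, its partner chain, was not above background on any WT proliferating array and was above it on 2 of the 4 KO ones. Its bound of at least 1.24-fold higher in KO thus rests on values near background and did not pass. Col18a1, whose C-terminal fragment is endostatin, had ratios of 2.09 and 1.63 on proliferating replicates 3 and 4 and 0.42 and 0.64 on replicates 1 and 2. Col5a3, a type V chain, spread likewise over -0.07, 0.63, 1.24 and 2.12 on replicates 1 to 4 (mean 0.98, adjusted p = 0.234).

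By family, the 9 tested fibril-forming collagens had a median KO over WT log2 ratio of 0.19 in differentiating and 0.45 in proliferating cells, with 0 called in limma and 3 and 5 at an unadjusted p under 0.05. The 6 tested fibril-associated collagens, which carry the type IX chains, had medians of 0.28 and 0.12, with 1 and 2 called. The 5 tested type IV chains had -0.11 and -0.25, with 0 called and 0 and 3 at an unadjusted p under 0.05. The 4 tested beaded, anchoring and short-chain collagens had -0.15 and -0.12, also with 0 called and 2 and 1 at that unadjusted p. The 3 tested transmembrane collagens had 0.18 and 0.07, with 0 called and 0 at that unadjusted p. The 7 tested laminins had 0.04 in both conditions, with 0 and 1 called.

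The sign of the ratio was the same on all 6 arrays for 10 members. Col11a2, Col18a1, Col1a1, Col1a2, Col5a1, Col8a1, Col9a1, Col9a3 and Lama4 were above 0 in KO on each, 9 of 36 members, beside 5.84% of all genes tested. Col4a2 was below 0 on each, 1 of 36, beside 4.05% of all genes tested. Most of these members did not pass the test, as given above. The signs are those of the probe used. Second probes of Col11a2, Col5a1 and Col18a1 were not above 0 on every array, and that of Col4a2 was not below 0 on every array.

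No type IV collagen chain and, Lama4 apart, no laminin chain passed the KO over WT test over all arrays. Col4a1 and Col4a2 encode the 2 chains of the common type IV trimer and start 21 bases apart on opposite strands of chromosome 8 in GRCm38.p6. Col4a1 had log2 intensities of 7.42 and 7.75 in KO differentiating cells against 7.67 and 7.90 in WT, and 8.92, 7.93, 7.52 and 8.16 in KO proliferating cells against 8.81, 8.56, 8.06 and 9.37 in WT. The KO and WT ranges overlapped in both conditions. Col4a2 had ratios of -0.30 and -0.24 on the differentiating arrays and -0.09, -0.21, -0.16 and -0.56 on the proliferating ones. Their means were -0.27 (adjusted p = 0.327) and -0.25 (adjusted p = 0.239), so neither passed. Lama5 (-0.27 and -0.06), Lamb2 (0.36 and 0.19) and Lamc1 (0.32 and 0.03), laminin alpha, beta and gamma chains, did not pass in differentiating or proliferating cells (adjusted p 0.217 to 0.935). Lama2, the alpha2 chain, had 0.04 (adjusted p = 0.907) in differentiating cells and was not above background in WT proliferating cells. Lama3 and Lamc3, the other tested laminin chains, also did not pass. Lamb1-1, outside the name rule, had -0.24 (adjusted p = 0.686) and -0.11 (adjusted p = 0.81). The 95% interval of the Lamc1 ratio in proliferating cells ran over -0.26 to 0.32.

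Col4a6 and Col4a5 encode X-linked type IV chains that share a trimer and start 1343 bases apart on opposite strands. Col4a6 had log2 intensities of 10.51 and 9.15 in KO differentiating cells, against 7.83 and 7.33 in WT. In proliferating cells it had 10.31, 9.34, 10.33 and 11.30 in KO, against 7.71, 6.99, 10.84 and 12.06 in WT. KO was far above WT on 4 arrays and below it on proliferating replicates 3 and 4, where WT was high. On those 2 arrays Xist, the RNA made from the inactive X, had 11.27 and 11.06 in KO and 12.68 and 13.33 in WT, against 5.92 to 6.08 in all other channels. The Y-chromosome gene Ddx3y stood at 8.46 and 8.83 in KO and 6.05 and 5.89 in WT there, against 9.04 to 9.78 in all other channels. Over all arrays Col4a6 had ratios of 2.25 (adjusted p = 0.309) in differentiating and 0.92 (adjusted p = 0.577) in proliferating cells. Without proliferating replicates 3 and 4, where 4 members passed in differentiating and 3 in proliferating cells, these were 2.25 (adjusted p = 0.00948) and 2.48 (adjusted p = 0.0198). Its other 2 probes are annotated to another transcript record. Of these, 1 gave 1.06 and 0.07 on the differentiating arrays (mean 0.57). That probe had 0.73, 0.83, -0.55 and -0.35 on proliferating replicates 1 to 4 (mean 0.16), with the same signs as the probe used. The other gave means of -0.04 and -0.03. Col4a5 was lower in KO on all 4 proliferating arrays (-0.45, -0.30, -0.25 and -0.69) and higher on the 2 differentiating ones (0.25 and 0.09), none of it past the threshold.

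**Figure D3:**
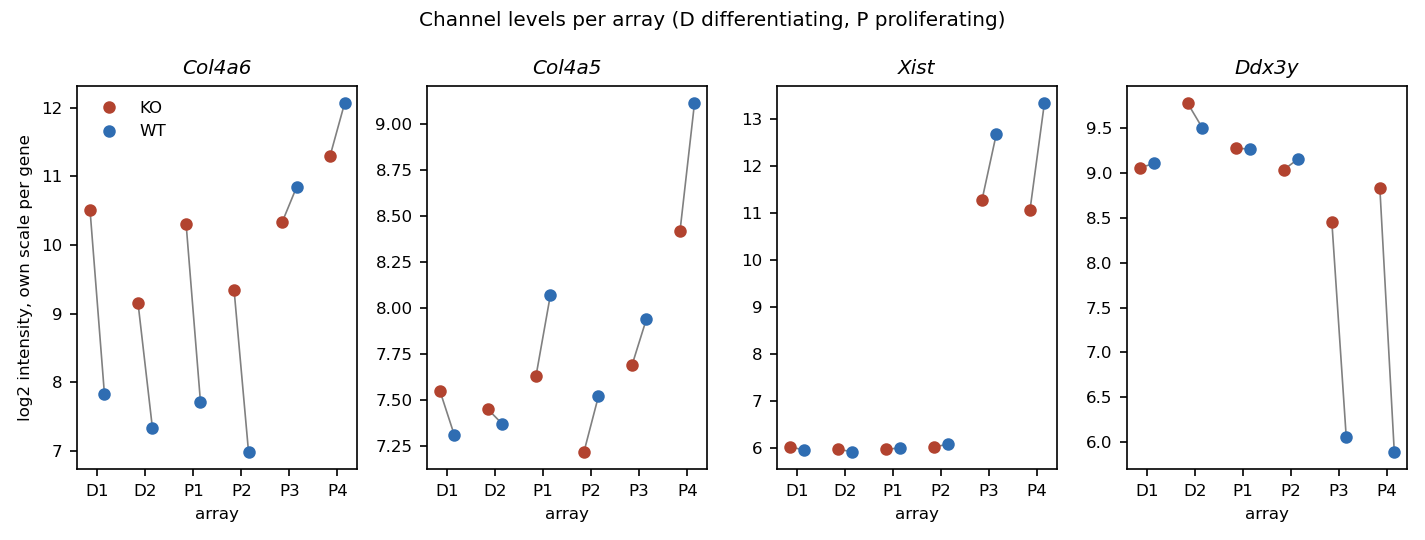
Log2 channel intensity of Col4a6, Col4a5, Xist and Ddx3y on differentiating arrays 1 and 2 (D1, D2) and proliferating arrays 1 to 4 (P1 to P4), KO in red at left and WT in blue at right of each pair. On P3 and P4 WT Col4a6 lies at 10.84 and 12.06, above its KO partner, and the same arrays stand apart in Xist and in WT Ddx3y.

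The windows before the starts of this pair are shown with CG in capitals because the ratios of these neighbours had opposite signs on proliferating replicates 1 and 2.
Col4a6, chrX:141474077-141474326, minus strand: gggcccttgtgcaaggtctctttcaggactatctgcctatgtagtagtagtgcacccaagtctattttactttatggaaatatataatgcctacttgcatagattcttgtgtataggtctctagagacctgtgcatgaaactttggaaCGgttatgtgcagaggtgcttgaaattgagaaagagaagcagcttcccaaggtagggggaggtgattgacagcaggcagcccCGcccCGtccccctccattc
Col4a5, chrX:141475169-141475418, plus strand: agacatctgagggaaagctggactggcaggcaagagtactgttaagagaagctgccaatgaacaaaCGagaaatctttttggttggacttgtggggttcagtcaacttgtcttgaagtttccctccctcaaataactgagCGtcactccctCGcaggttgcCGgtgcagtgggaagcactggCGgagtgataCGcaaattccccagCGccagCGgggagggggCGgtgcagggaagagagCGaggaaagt
The Col4a6 window held 3 CG pairs and the Col4a5 window 10, from the same RefSeq table and build.

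The effect of Dnmt3a loss on a member did not differ between conditions past the threshold for any of the 36 members (limma, adjusted p; 0.0499% of all genes tested were called, 0.0332% higher and 0.0166% lower). At an unadjusted p under 0.05 there were 4. These were Lama4 at -1.47 (adjusted p = 0.248), Col4a5 at 0.59 (adjusted p = 0.265), Col20a1, a fibril-associated collagen, at 0.54 (adjusted p = 0.353) and Col9a3 at 0.59 (adjusted p = 0.358). The next were Col8a1 at 0.30, Col9a2 at -0.34, Col7a1 at -0.31, Col27a1 at -0.50, Col22a1 at -0.27 and Col18a1 at -1.05, with adjusted p between 0.427 and 0.505. The 95% interval of the difference ran over -2.45 to -0.49 for Lama4 and 0.07 to 1.11 for Col9a3.

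Differentiating and proliferating cells were compared within each genotype. In KO cells 11 of 36 members passed (30.6%), 5 higher and 6 lower in differentiating than in proliferating cells, beside 15.3% of the 18037 genes in that fit (9.3% higher, 5.97% lower). In WT cells 11 of 36 passed (30.6%), 6 higher and 5 lower, beside 15.1% of all genes (9.24% higher, 5.82% lower). Col11a2, Col9a1, Col9a2, Col15a1 and Col7a1 rose in both genotypes, and Col18a1, Col5a2, Lama5, Col5a1 and Lamc1 fell in both. These 10 members passed in both genotypes with the same direction, while Col22a1 also passed in KO and Col2a1 in WT. The tested difference between the genotypes was -0.27 for Col22a1 (adjusted p = 0.502) and -0.07 for Col2a1 (adjusted p = 0.923). The KO and WT changes come from channels of the same arrays and are not independent. Astrocyte markers summed to 95625 to 134710 in differentiating and 43713 to 72320 in proliferating KO cells, and to 74369 to 88793 in differentiating and 26444 to 53637 in proliferating WT cells. Neuronal markers summed to 10419 to 11793 in differentiating and 6095 to 9415 in proliferating KO cells, and to 22211 to 24995 in differentiating and 8389 to 9635 in proliferating WT cells. Oligodendroglial markers summed to 146967 to 177133 in differentiating and 57729 to 136463 in proliferating KO cells, and to 61181 to 77365 in differentiating and 45206 to 73433 in proliferating WT cells. The mural marker Pdgfrb was 3.51 higher on the log2 scale in KO and 4.12 higher in WT differentiating cells, where the summed mural list was 9340 to 11830 in differentiating and 11285 to 17429 in proliferating KO cells, and 10080 to 12347 in differentiating and 8347 to 14716 in proliferating WT cells. The part of these cell types in the changes was not tested. With Agilent's processed signals the split was 7 higher and 5 lower in KO and 10 higher and 5 lower in WT.

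**Figure D4:**
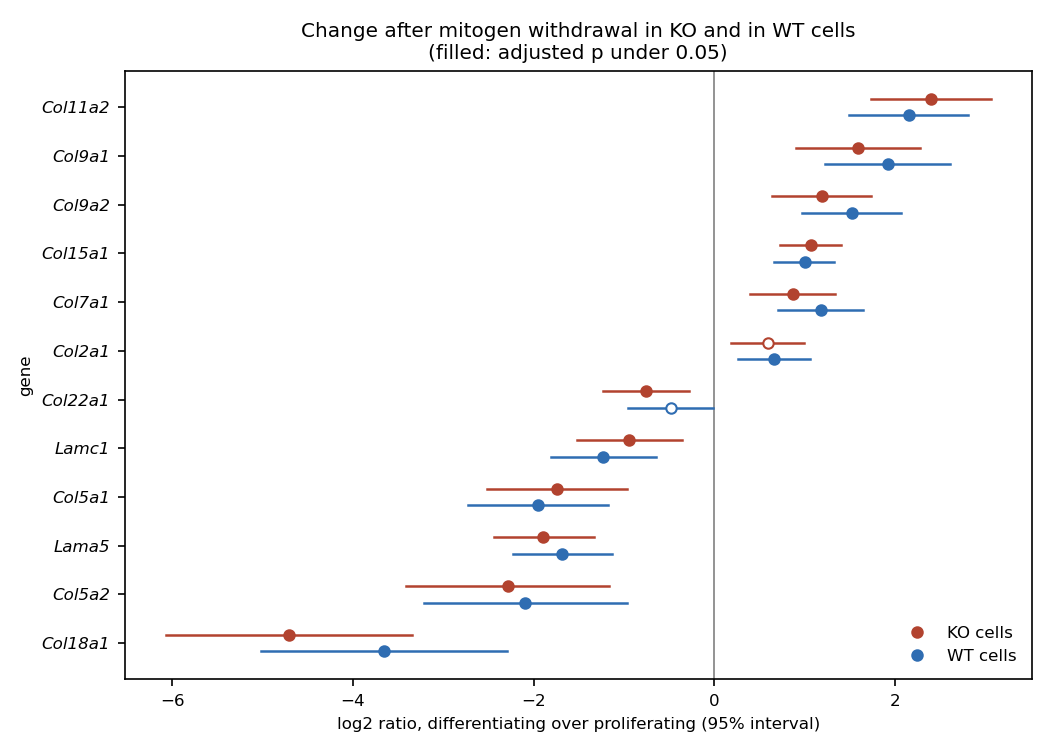
Log2 change from proliferating to differentiating cells, with its 95% interval, for the 12 members that passed in KO (red, upper) or WT cells (blue, lower); filled points have an adjusted p under 0.05. Col11a2 has the highest change (2.40 in KO, 2.15 in WT) and Col18a1 the lowest (-4.71 in KO, -3.66 in WT).

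Type II, IX and XI collagens assemble into the thin fibrils of cartilage. Col11a2, a type XI chain, had log2 intensities of 9.83 and 9.57 in differentiating KO cells, against 6.70, 7.71, 7.04 and 7.74 in proliferating KO cells. In WT they were 8.97 and 8.87 in differentiating cells, against 6.59, 6.56, 6.77 and 7.17 in proliferating cells. The ranges did not overlap in either genotype, and the change was 2.40 in KO (5.28-fold, adjusted p = 0.00197) and 2.15 in WT (4.45-fold, adjusted p = 0.0027). The second Col11a2 probe, also above background, gave 0.00 in KO and -0.03 in WT, so its 2 probes disagree. Col9a1 rose 3.01-fold in KO (adjusted p = 0.0113) and 3.78-fold in WT (adjusted p = 0.00514), and Col9a2 rose 2.28-fold in KO (adjusted p = 0.0146) and 2.87-fold in WT (adjusted p = 0.00531). Col9a3, the third chain, had a change of 1.17 in KO (adjusted p = 0.0854) and 0.58 in WT, neither called. Col2a1, the type II chain, rose 1.58-fold in WT (adjusted p = 0.0363) and had 1.51-fold in KO (adjusted p = 0.0513).

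Col15a1, a basement membrane multiplexin, was not above background on any proliferating array. It entered the test only through the 2 differentiating arrays, so it had to differ, and it is 1 of the 11 members counted as called in each genotype. It was at least 1.75-fold higher in differentiating KO cells (adjusted p = 0.0037) and at least 1.59-fold higher in differentiating WT cells (adjusted p = 0.00396). Col7a1 rose by 0.87 in KO (adjusted p = 0.0246) and 1.18 in WT (adjusted p = 0.00797) on the log2 scale.

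Col18a1 fell the most. It had log2 intensities of 7.21 and 7.31 in differentiating KO cells, against 11.72, 11.31, 13.00 and 11.85 in proliferating KO cells. In WT it had 7.02 and 7.21 in differentiating cells, against 11.29, 10.67, 10.91 and 10.22 in proliferating cells. No differentiating value came near a proliferating one. The change was -4.71 in KO (26.2-fold lower, adjusted p = 0.00258) and -3.66 in WT (12.6-fold lower, adjusted p = 0.00603), and its second probe gave -3.78 and -2.84. Its fall in KO and WT differed by -1.05 (SE 0.52, adjusted p = 0.505).

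Lama5, the laminin alpha5 chain of mature basement membranes, had 9.99 and 9.99 in differentiating KO cells, against 12.02, 11.77, 12.14 and 11.58 in proliferating KO cells, and 10.02 and 10.49 in differentiating WT cells, against 11.85, 11.93, 12.03 and 11.93 in proliferating WT cells. It fell 3.7-fold in KO (adjusted p = 0.00279) and 3.2-fold in WT (adjusted p = 0.00368). Lamc1, the gamma1 chain of most laminins, fell 1.92-fold in KO (adjusted p = 0.0379) and 2.34-fold in WT (adjusted p = 0.015). Lamb2, the beta2 chain, had 0.35 in KO and 0.18 in WT and was not called. Lamb1-1, which codes the beta1 chain and lies outside the name rule, had -2.08 in KO (adjusted p = 0.00679) and -1.95 in WT (adjusted p = 0.008). Lama4 had -1.64 in KO (adjusted p = 0.0521). In differentiating WT cells it was not above background and was at least 1.12-fold lower than in proliferating WT cells (adjusted p = 0.853).

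Col5a2 and Col5a1 encode type V collagen chains. Col5a2 had 6.65 and 6.56 in differentiating KO cells, against 9.25, 8.40, 8.19 and 9.71 in proliferating KO cells, a 4.87-fold fall (adjusted p = 0.0179). In WT it was not above background in differentiating cells and was at least 4.26-fold lower than in proliferating cells (adjusted p = 0.0244). Col5a1 fell 3.35-fold in KO (adjusted p = 0.0121) and 3.87-fold in WT (adjusted p = 0.00774), but its dimmer probe gave 0.49 in both. Col5a3 had -2.18 in KO (adjusted p = 0.057) and -1.31 in WT (adjusted p = 0.214). Col22a1 fell 1.69-fold in KO (adjusted p = 0.041), against -0.48 on the log2 scale in WT (adjusted p = 0.151). Type IV chains were not called: Col4a1 had -0.55 in KO and -0.91 in WT (adjusted p 0.376 and 0.152), and Col4a2 had 0.02 and 0.03. Col1a1 had 0.61 in KO (adjusted p = 0.305) and 0.09 in WT (adjusted p = 0.897), and Col1a2 had 0.60 in KO (adjusted p = 0.0913).

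With single arrays left out, the members called in KO cells numbered 4, 6, 7 and 15 without proliferating replicates 1 to 4 and 3 and 2 without differentiating replicates 1 and 2, and in WT cells 8, 8, 10 and 14, then 3 and 3. Lama5 passed in every one of these in both genotypes and Col11a2 in every one in KO. Without proliferating replicates 3 and 4 together, the adjusted p of Lama5 was 0.0579 in KO and 0.0904 in WT and that of Col11a2 in WT 0.0542, and 3 members passed in KO (Col11a2, Col18a1 and Col5a1) and 4 in WT (Col18a1, Col5a1, Col7a1 and Col9a2). With the replicate number as a random block, 4 passed in KO and 5 in WT.

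Genes that process, bind or cut the matrix were read from 5 lists, chosen with earlier results of these data known. Of the 25 tested collagen biosynthesis and crosslinking enzymes, 2 rose in KO differentiating cells, beside 2.18% of all genes called higher. These were Loxl1, a lysyl oxidase that crosslinks fibres, at 1.74 (adjusted p = 0.0333; 1.93 and 1.55 on the arrays), and Pcolce2, a procollagen processing helper, at 0.99 (adjusted p = 0.0479). In KO proliferating cells 0 of 25 passed in limma, with 10 at an unadjusted p under 0.05. The median ratios were 0.14 and 0.17, against -0.01 over all genes tested. Of the 12 tested proteases and inhibitors 3 were called in differentiating cells, beside 3.1% of all genes, and 1 in proliferating cells, beside 0.97%. Mmp14, a membrane-bound collagenase, rose by 2.69 on the log2 scale in KO differentiating cells (adjusted p = 0.0125; 2.93 and 2.46 on the arrays). Timp4 rose by 1.55 (adjusted p = 0.0255), while Mmp16 fell by 0.85 (adjusted p = 0.0328). In KO proliferating cells Mmp2, a gelatinase that also cuts type IV collagen, rose by 1.92 (adjusted p = 0.0349). It had 1.62, 1.27, 2.38 and 2.42 on the arrays, and WT was above background on only 2 of 4. Among 28 basement membrane partners, 19 receptors and 14 TGF-beta pathway genes, 0 passed in either KO over WT comparison in limma. At an unadjusted p under 0.05 there were 7, 1 and 5 in differentiating cells and 5, 3 and 3 in proliferating cells, with no share of all genes at that p to set beside them.

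After mitogen withdrawal the basement membrane partners had 7 of 28 members called in KO (2 higher, 5 lower), beside 15.3% of all genes (9.3% higher, 5.97% lower). In WT 4 of 28 were called, all lower, beside 15.1% of all genes (9.24% higher, 5.82% lower). The WT count is about the share called in either direction, but not that called lower. Nid1, the nidogen that links laminin to type IV collagen, rose by 1.57 in KO (adjusted p = 0.0159), as did Bcan, the brain proteoglycan brevican, by 1.08 (adjusted p = 0.00526). Fbn1, a microfibril protein, fell by 2.04 in KO (adjusted p = 0.0169) and by 1.74 in WT (adjusted p = 0.0294), and Fbln2 fell by 5.17 in KO (adjusted p = 0.0174) and by 3.94 in WT (adjusted p = 0.0442). Fras1 was at least 1.67-fold lower in KO (adjusted p = 0.0373) and at least 1.63-fold lower in WT (adjusted p = 0.0412). It was not above background on any differentiating array and entered the test only through proliferating arrays, so it had to differ. Fras1 is among the 7 genes called in KO and the 4 in WT, and Papln, counted in KO, entered in the same way. Of the 19 receptors 3 were called in KO (1 higher, 2 lower) and 3 in WT (all lower). These counts are about the share of all genes called in either direction, and the WT calls lie beside 5.82% called lower. Rpsa, a laminin-binding ribosomal protein, fell by 1.05 in KO (adjusted p = 0.0199) and by 1.00 in WT (adjusted p = 0.0241). Itga3 fell by 0.54 in KO (adjusted p = 0.0418). Lair1 rose by 2.09 in KO (adjusted p = 0.0305), where it was above background on 1 of the 4 proliferating arrays. In WT Sdc1 fell by 1.55 (adjusted p = 0.0286) and Itgb1, the shared integrin beta chain, fell by 0.95 (adjusted p = 0.0349). In each list of matrix genes 0 differed in KO effect between conditions past the threshold. A call in 1 genotype alone is therefore not a difference between genotypes.

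Of the 25 biosynthesis genes 3 were called in KO and 3 in WT, no more than the background of 15.3% and 15.1% of all genes. Plod2, a lysyl hydroxylase, fell by 1.17 in KO (adjusted p = 0.0378) and by 1.37 in WT (adjusted p = 0.0223), and Pcolce fell by 1.89 in KO (adjusted p = 0.0336). Loxl3 was at least 1.58-fold higher in KO (adjusted p = 0.0197) and at least 1.5-fold higher in WT (adjusted p = 0.033). It was not above background on any proliferating array and entered the test only through the 2 differentiating arrays, so it had to differ. Loxl3 is among the 3 genes counted as called in each genotype. Adamts2, above background on 1 of 2 differentiating arrays, was at least 1.28-fold higher in WT (adjusted p = 0.0437). Of the 12 proteases and inhibitors 1 was called in KO and 2 in WT, beside the same 15.3% and 15.1%. Mmp15 fell by 1.58 in KO (adjusted p = 0.0317) and by 1.45 in WT (adjusted p = 0.043), and Mmp16 rose by 1.18 in WT (adjusted p = 0.0321). Smad7, an inhibitor of TGF-beta signalling, rose by 1.22 in KO (adjusted p = 0.0246). It was the only 1 of 14 genes of its list called in KO, beside 15.3% of all genes, and 0 were called in WT, beside 15.1%.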

How the data were processed

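Labelled RNA from KO and WT cells was hybridised in opposite dyes to 6 Agilent arrays (design 014868), with dyes swapped between replicates. Per the file headers, Feature Extraction 9.5.1.1 made the deposited spot intensity values and the log10 ratio of red over green, with probe positions on mm7. A series-wide table deposited by the authors gives these log10 values signed as KO relative to WT and served only to check direction. Mean and background intensity values were corrected with normexp (offset 50) and loess-normalized to log2 ratios in limma 3.58.1 (R 4.3.3), without 1639 control spots per array in the fits.

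One fit over the 6 arrays had a coefficient per condition and a dye term. Differentiating and proliferating cells were compared by a separate-channel fit after Aquantile scaling (intraspot correlation 0.764). P-values were Benjamini-Hochberg adjusted over all 18046 or 18037 genes tested. Scripts were tested on simulated data. The number of arrays limits precision.

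Named were members past an adjusted p of 0.05, filled up to 10 by smallest p in each comparison, a fixed set of type I, III and IV collagen and laminin chains, up to 4 called genes of smallest p from each pathway list, and Dnmt3a. Folds of genes with all arrays of a group below background are given as bounds, against the lowest signal well above background. Array ratios, family medians and differences of KO effects keep the measured values. The members and lists were chosen with earlier results of these data known. Alternatives covered background, normalization, filter, dye, array weights, replicate block, probe choice and left-out arrays. Some genes are not reported here.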

Additional observations from a re-analysis of the deposited data

Results flagged for a closer look

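In 4 of 108 groups of 4 proliferating values, 1 sample stood far from the other 3, where chance gives about 1 in 20. Col6a3, a type VI collagen chain, had a KO over WT log2 ratio of -1.50 on replicate 1, against -0.07 to 0.10 on the others. Col6a2 had a log2 level of 7.09 in WT replicate 1, against 6.68 to 6.74 in the others. Col27a1, a fibril-forming collagen, had a log2 level of 7.45 in WT replicate 4, against 6.27 to 6.45 in the others. Col5a2 had a log2 ratio of -0.45 on replicate 2, against 0.54 to 0.74 on the others.

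The KO effect on Col4a5 ran in opposite directions on every array of the 2 conditions, above 0 on both differentiating and below 0 on all 4 proliferating arrays. The difference was 0.59 on the log2 scale (limma adjusted p = 0.265).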

How the results depend on the processing

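No result changed direction past the threshold. In differentiating cells the 1 member called became 3 without background subtraction, 5 with Agilent's processed signals, 2 without the dye term, 7 with array weights, 4 without proliferating replicates 3 and 4, and 6 from differentiating arrays alone, and ran over 0 to 3 with 1 array left out. In proliferating cells the 3 called became 0 from proliferating arrays alone (13 had an unadjusted p under 0.05 over all arrays, limma) and 0 to 2 with 1 array left out. The difference of KO effects stayed at 0 in all 16 alternatives. The withdrawal counts of 11 in each genotype became 3 in KO and 4 in WT without proliferating replicates 3 and 4, and ran over 2 to 15 in KO and 3 to 14 in WT with 1 array left out.

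With the replicate number as a block, 2 members passed in differentiating and 3 in proliferating cells, 4 in the KO and 5 in the WT withdrawal comparison, and 0 for the difference. The conditions share only 2 numbers, and the same-numbered arrays have opposite dyes (correlations of deviations -0.37 and -0.29), so the numbers were not taken as pairs. Over all genes, the block gave 153 calls against 2754 in KO, 526 against 2716 in WT and 19 against 9 for the difference.

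Calls over all genes in differentiating cells, 559, became 285 with median centring, 2115 with array weights, 975 without proliferating replicates 3 and 4, 1589 from that condition alone and 0 to 539 with 1 array left out. In proliferating cells 175 became 271 with processed signals, 101 with no filter, 0 from that condition alone and 0 to 177 with 1 array left out. The 9 for the difference became 81 with processed signals, 24 without the dye term, 156 with array weights, 5 with the probe mean, 4 with the filter on all arrays, and 0 with median centring, no filter, or arrays left out. Withdrawal calls became 1211 in KO and 970 in WT without proliferating replicates 3 and 4, and 282 to 4736 in KO and 201 to 3818 in WT with 1 array left out. The slide and scan block was not run, since each condition lies on 1 slide and 1 scan. The cause of these changes was not tested.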

Other observations

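Col6a1, Col6a2 and Col6a3, type VI collagen chains, were each highest in WT proliferating replicate 1. There Col6a1, which did not pass the filter, had a log2 level of 7.62, against 6.14 to 6.54 in the other WT proliferating samples. Col6a3 had 7.45 there, against 6.06 to 6.42, and Col6a2 had 7.09, against 6.68 to 6.74.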
